A study of Homo sapiens with 6 samples.

Results

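In HCC38 cells, the 2 siRNAs that lowered CIP2A most were compared with 2 non-targeting siRNAs, and no transcript other than CIP2A, whose level chose the libraries, passed the test with both silenced libraries on the same side. HCC38 is an established human line from a ductal adenocarcinoma of the breast, classed by the labels as triple negative and basal-like. The series holds 6 libraries of poly(A) RNA, and 4 of these are used here, each from cells grown in RPMI with fetal bovine serum and given an siRNA with the lipid reagent Oligofectamine. SCR#2 and SCR#3, with control sequences that target no gene, form the non-targeting group, and siCIP2A#1 and siCIP2A#3, with different sequences against CIP2A, form the silenced group. Each siRNA has 1 library, all 4 come from the same line, and nothing in the labels says that they came from separate cultures. P-values thus measure the spread between these libraries, part of which may be technical. The silenced libraries were chosen by the CIP2A level measured in them, so that level is described here and not tested. The mock, which one label gives as transfection reagent without siRNA and the design text as a non-transfection control, and siCIP2A#2 were left out of the comparison. Their levels are printed beside those of some genes, and neither entered the main test.

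CIP2A, listed in the table under its older symbol KIAA1524, encodes an inhibitor of protein phosphatase 2A (PP2A), a family of serine and threonine phosphatases built from scaffold, catalytic and exchangeable regulatory subunits. Inhibition of PP2A by CIP2A is known to stabilise the MYC protein, and CIP2A also binds TOPBP1 and, with MDC1, tethers broken chromosomes in mitosis. An siRNA directs the silencing machinery to transcripts that match it, and its seed can also lower other transcripts with partial matches. The siRNA sequences are not used here.

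The total count was 14743781 to 18161451 reads assigned to genes in the 4 libraries, and a count of 3, the floor used here, was 0.165 to 0.203 CPM (the count scaled to the library total, with the floor covering counting error only). Of 26485 genes, 13673 had enough counts to be tested. Between 16796 and 17362 genes had a read, the most with siCIP2A#1. The libraries of a group were not copies of each other, with a chi-square per degree of freedom of 3.22 between SCR#2 and SCR#3 and 17.6 between siCIP2A#1 and siCIP2A#3. Of the basal markers, KRT14 had 0 reads, KRT5 and KRT17 had at most 1 read in a library, and EGFR stood at 74.2 to 83.4 CPM. In such bulk libraries fewer cells of a type and less RNA per cell cannot be told apart. Of the luminal markers, the oestrogen receptor gene ESR1 had at most 6 reads and KRT8 stood at 253 to 446 CPM. The epithelial genes EPCAM, CDH1 and KRT19 stayed at or below 1.22 CPM, and the mesenchymal gene VIM was at 4615 to 4802 CPM. The keratins that define a basal type were thus at or near 0 in cells labelled basal-like. PTPRC of leukocytes, CDH5 of endothelium and ADIPOQ, MLANA and TYR of adipocytes and melanocytes had 0 reads in all 4 libraries. The 6 fibroblast markers summed to 6.32 to 7.77 CPM in 3 libraries and to 18.5 CPM with siCIP2A#1, where COL1A1 made up 14.6 CPM against 4.61 to 5.08 CPM in the others. The 6 leukocyte markers summed to 155 to 205 CPM, nearly all of it CD68, the 4 endothelial ones to 7.15 to 13.8 CPM and the 5 of adipocytes and melanocytes to 2.44 to 3.04 CPM.

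CIP2A, the target, is on chromosome 3 from 108549864 to 108589438 of build GRCh38. With the controls its level was 99.7 CPM (SCR#2) and 103 CPM (SCR#3), a mean of 101 ± 2.28 CPM (SD, n = 2). In the silenced libraries it was 16.6 CPM (siCIP2A#1) and 19.3 CPM (siCIP2A#3), a mean of 18.0 ± 1.90 CPM (SD, n = 2), which is 16.4% and 19.1% of the non-targeting mean. The groups lay far apart, the silenced libraries differed little from each other, and the log2 difference between the groups was -2.51 (SE 0.11). The values that set the choice were 19.3 CPM for siCIP2A#3, just inside it, and 45.6 CPM for siCIP2A#2, just outside it and 45.0% of the non-targeting mean. The mock stood at 97.0 CPM.

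**Figure D1:**
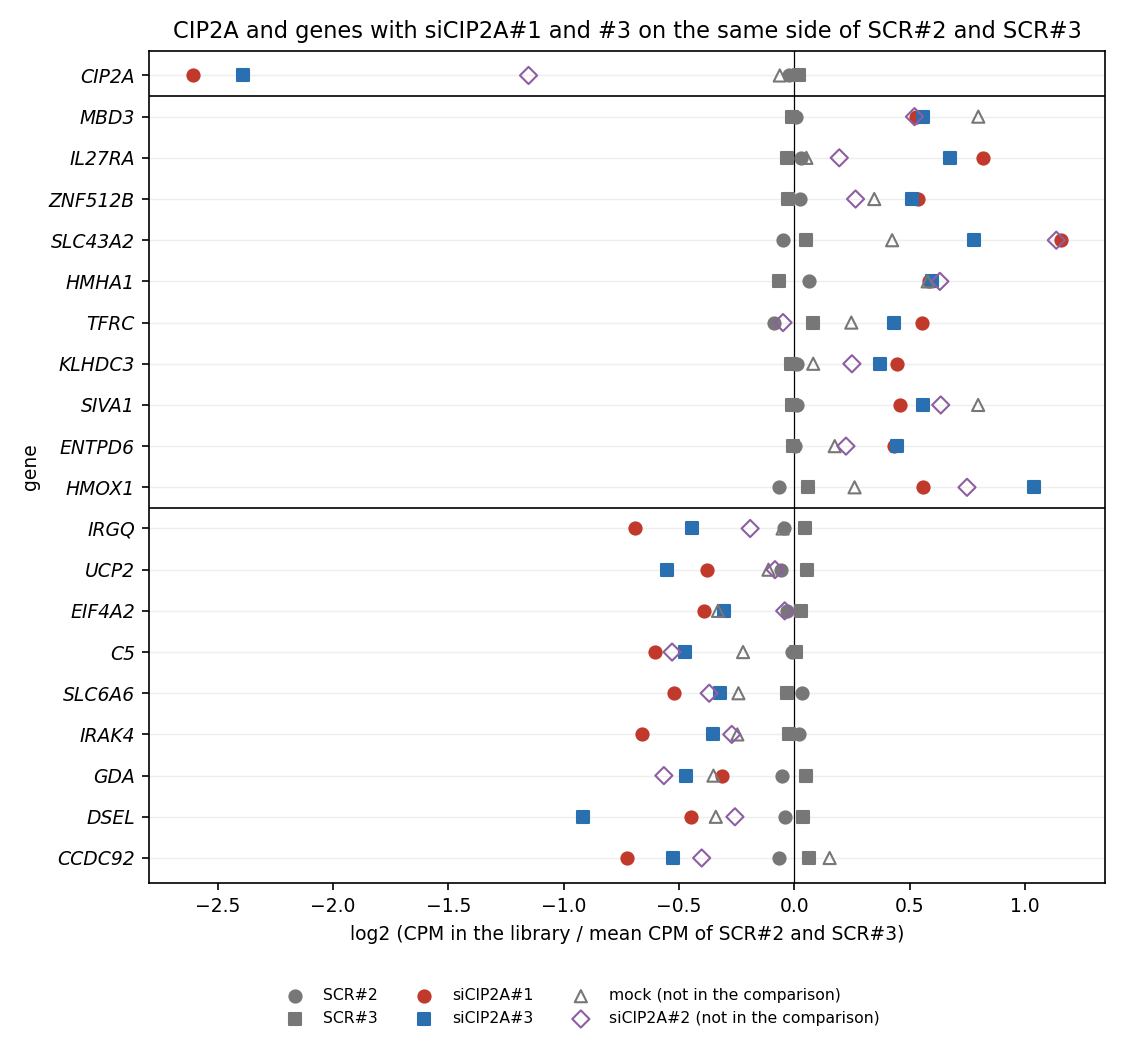
Level of CIP2A and of the named genes with both siRNAs on the same side, in each library, as the log2 ratio of its library-scaled count (CPM) to the mean of SCR#2 and SCR#3. Filled symbols are the 4 libraries compared and open symbols the mock and siCIP2A#2. The CIP2A points of siCIP2A#1 and siCIP2A#3 lie at 16.4% and 19.1% of the non-targeting mean, and no other gene comes near that ratio.

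The main comparison asked which transcripts other than CIP2A the siCIP2A#1 and siCIP2A#3 libraries had in common against the non-targeting pair. A gene was called where the quasi-likelihood test of edgeR, with p adjusted by Benjamini-Hochberg over all 13673 tested genes was under 0.05 and both silenced libraries lay on the same side of both non-targeting ones. No gene was called higher (0 of 13673, 0%) and 1 was called lower (0.00731%), which was CIP2A itself. Since CIP2A chose the libraries, its call is no result. At an unadjusted edgeR p under 0.05 there were 816 genes, where 684 of 13673 would be expected if no gene differed. DESeq2 gave 349 genes at that threshold and limma-voom 792. Each of these, run beside edgeR, also called CIP2A and no other gene after adjustment. With siCIP2A#2 added to the silenced group 0 genes passed. With 1 silenced library left out the test takes the spread from the non-targeting pair alone and calls 1082 genes without siCIP2A#1 and 2077 without siCIP2A#3, CIP2A among them both times. With 2 libraries against 2, an exact permutation test of a single gene cannot give a p below 0.333.

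The spread between libraries was set beside these counts. Over the 12093 genes whose log2 CPM averaged 1 or more, the SD of the log2 difference between SCR#2 and SCR#3 was 0.171. It was 0.257 to 0.265 between a silenced and a non-targeting library, and 0.326 between siCIP2A#1 and siCIP2A#3, the highest of the 6 pairs. The silenced libraries were thus farther from each other than either was from a non-targeting one. To set the siRNAs side by side without a shared control, siCIP2A#1 minus SCR#2 was compared with siCIP2A#3 minus SCR#3 over the 12092 of these genes other than CIP2A. Across these genes, which are not independent replicates, Pearson's r was -0.0084 and Spearman's coefficient 0.0382, and 51.2% of genes had the same sign. With the controls exchanged r was -0.0011 and Spearman's coefficient 0.0430, with 51.9% of the same sign. No gene besides CIP2A, 0 of 12092, differed by more than 1 on the log2 scale in the same direction in both of the first pair of differences.

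**Figure D2:**
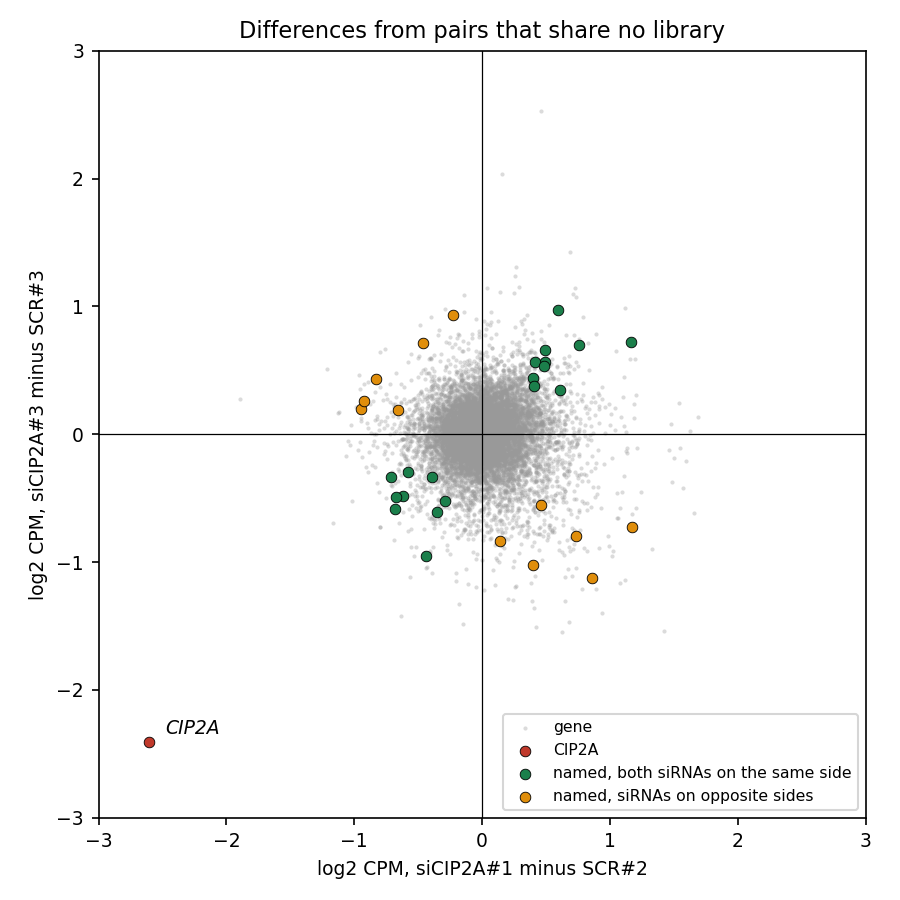
Each point is 1 of 12093 genes, with the log2 CPM difference of siCIP2A#1 from SCR#2 on the horizontal axis and of siCIP2A#3 from SCR#3 on the vertical axis, so that the axes share no library. CIP2A stands alone at the lower left, the named genes with both siRNAs on the same side are green, those on opposite sides are orange, and the cloud of all genes has no slope (r = -0.0084).

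Sides alone were shared more often than calls. Both silenced libraries lay above both non-targeting ones for 2593 genes (19%) and below them for 2534 (18.5%), while 3781 genes (27.7%) had one siRNA above and the other below both. The genes above and below differed in base composition: the median GC content of the longest transcript was 54.7% for genes above, 43.7% for genes below, 47.4% for those on opposite sides and 47.9% for all tested. The log2 difference was larger at higher GC content across genes, with a Spearman coefficient of 0.327 over 13362 genes (0.339 with siCIP2A#1 and 0.157 with siCIP2A#3), against 0.0588 for SCR#3 minus SCR#2 and -0.0148 for siCIP2A#2 minus the mock. The part of GC content in single differences was not tested beyond offsets for GC and length, with which 0 genes other than CIP2A passed. The libraries left out give a further view: siCIP2A#2 lay above the mock for 43.4% of 2309 genes that were above with both siRNAs, 51.6% of 2306 below and 47.5% of all 12092. The share was thus lower among the genes above than among those below. The mock had no siRNA, so siCIP2A#2 minus the mock sets an siRNA against none, unlike the main comparison. With siCIP2A#2 CIP2A also stayed at 45.0% of the non-targeting mean.

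Among the genes above, none of which passed the test (edgeR adjusted p = 0.811 for each of those named), the smallest p belonged to MBD3, a subunit of the NuRD chromatin remodelling complex, on chromosome 19 from 1573596 to 1592865. MBD3 stood at 65.3 CPM with SCR#2 and 64.5 CPM with SCR#3 and at 93.7 CPM with siCIP2A#1 and 95.6 CPM with siCIP2A#3, a log2 difference of 0.53 (SE 0.09). The groups did not overlap, but the mock, with no siRNA, was higher than any of the 4 at 113 CPM, and siCIP2A#2 was at 93.1 CPM. With the mock among the controls the log2 difference of MBD3 was 0.20. SIVA1, an inducer of apoptosis, stood at 34.4 and 33.9 CPM with the non-targeting siRNAs and 46.9 and 50.3 CPM with siCIP2A#1 and #3, and the mock was again highest at 59.4 CPM. With the mock among the controls the difference of SIVA1 went from 0.49 to 0.17. HMHA1, a gene for a GTPase-activating protein, stood at 25.6 and 23.4 CPM against 36.8 and 37.1 CPM, with 36.6 CPM in the mock and 37.9 CPM with siCIP2A#2, and its difference went from 0.57 to 0.35 with the mock among the controls. For MBD3 and SIVA1 the mock lay above the silenced libraries, and for HMHA1 just below them.

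Other genes above both controls kept a gap to the mock. SLC43A2, a transporter of neutral amino acids on chromosome 17 from 1569254 to 1630088, stood at 6.84 CPM with SCR#2 and 7.33 CPM with SCR#3 and at 15.8 CPM with siCIP2A#1 and 12.2 CPM with siCIP2A#3, a log2 difference of 0.97 (SE 0.18), with 9.50 CPM in the mock and 15.6 CPM with siCIP2A#2. Its silenced libraries, siCIP2A#2 included, were higher than the 3 libraries without a CIP2A siRNA. HMOX1, the inducible haem oxygenase on chromosome 22 from 35381096 to 35394207, stood at 21.3 CPM with SCR#2 and 23.2 CPM with SCR#3 and at 32.8 CPM with siCIP2A#1 and 45.7 CPM with siCIP2A#3, with 26.7 CPM in the mock and 37.4 CPM with siCIP2A#2. The order of the libraries was the same kind as for SLC43A2, with a log2 difference of 0.80 (SE 0.17), and the siCIP2A#3 library was above siCIP2A#1 (log2 difference -0.50 as #1 minus #3, edgeR adjusted p = 0.00694, and 0.300 with the mock added). TFRC, the transferrin receptor that brings iron into the cell, on chromosome 3 from 196049284 to 196082090, stood at 239.7 CPM with SCR#2 and 269 CPM with SCR#3 and at 373 CPM with siCIP2A#1 and 343 CPM with siCIP2A#3, a difference of 0.48 (SE 0.09). With siCIP2A#2 TFRC was at 246 CPM, between the non-targeting libraries, and the mock was at 302 CPM. IL27RA, a subunit of the interleukin 27 receptor, stood at 14.9 and 14.3 CPM against 25.8 and 23.3 CPM, with 15.1 CPM in the mock and 16.7 CPM with siCIP2A#2, so that siCIP2A#2 was close to the controls. ZNF512B, a zinc finger gene, differed by 0.51, KLHDC3, a kelch-repeat substrate receptor of a ubiquitin ligase, by 0.39 and ENTPD6, which encodes a nucleoside diphosphatase, by 0.42. For ZNF512B the mock at 87.0 CPM lay between the controls, at 69.6 and 67.1 CPM, and the silenced libraries, at 99.2 and 97.3 CPM. With siCIP2A#2 ZNF512B was at 82.2 CPM, below the mock. For KLHDC3 and ENTPD6 the mock, at 144 and 53.7 CPM, also lay between the groups.

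On the lower side no gene but CIP2A passed either (edgeR adjusted p = 0.811 for each of those named). IRGQ, of the immunity-related GTPases, on chromosome 19 from 43584367 to 43596134, stood at 92.0 CPM with SCR#2 and 98.0 CPM with SCR#3 and at 58.8 CPM with siCIP2A#1 and 69.9 CPM with siCIP2A#3, a log2 difference of -0.58 (SE 0.11). The mock was at 91.7 CPM, as in the controls, and siCIP2A#2 at 83.2 CPM, between the groups. C5, the complement component, stood at 19.4 and 19.6 CPM against 12.8 and 14.1 CPM, and siCIP2A#2 at 13.5 CPM lay with the silenced libraries, below the mock at 16.7 CPM. CCDC92 stood at 12.3 and 13.5 CPM against 7.82 and 8.98 CPM, and here too siCIP2A#2 at 9.78 CPM was below the mock at 14.4 CPM. UCP2, a mitochondrial carrier of the uncoupling protein family on chromosome 11 from 73974672 to 73983202, stood at 41.3 and 44.7 CPM against 33.0 and 29.3 CPM, while siCIP2A#2 at 40.6 CPM was close to the lower control. EIF4A2, a helicase of translation initiation on chromosome 3 from 186783577 to 186789897, stood at 228 and 237 CPM against 177 and 189 CPM, and the mock at 185 CPM lay between the silenced libraries. The kinase gene IRAK4, which acts below Toll-like receptors, differed by -0.51, the taurine transporter gene SLC6A6 by -0.43, the guanine deaminase gene GDA by -0.41 and DSEL by -0.68 on the log2 scale. For GDA the mock at 59.9 CPM lay between siCIP2A#1 at 61.5 CPM and siCIP2A#3 at 55.2 CPM. For IRAK4, SLC6A6 and DSEL the mock, at 76.5, 81.7 and 19.0 CPM, lay between the groups. With siCIP2A#2 IRAK4 stood at 75.3 CPM, close to the mock, and DSEL at 20.1 CPM, above it.

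In the account of gene lists, a value without a unit is the log2 difference of the silenced pair from the non-targeting pair. With the mock among the controls this difference was smaller by over 1.5 times for 36 of 102 named genes, reversed for 0 of them and larger by over 1.5 times for 0. The level of the mock is given for some genes only, and others given without it can also have it near the silenced libraries. Counts of list members above, below or on opposite sides stand against 19%, 18.5% and 27.7% of all tested genes. TOPBP1, the CIP2A partner at broken chromosomes, stood at 226 CPM with SCR#2 and 219 CPM with SCR#3 and at 199.8 CPM with siCIP2A#1 and 233 CPM with siCIP2A#3, with the siRNAs on either side of the controls. Its log2 difference was -0.05 (SE 0.10), and it turned to 0.06 without siCIP2A#1. MDC1, the scaffold that recruits TOPBP1, stood at 329 and 337 CPM against 317 and 311 CPM (-0.10, SE 0.08). Of the 42 tested CIP2A partners and genes of recombination and checkpoint signalling, 2 lay above both controls with both siRNAs, 10 below and 12 on opposite sides, with a median log2 difference of -0.04 where that of all tested genes was -0.0003. For siCIP2A#2 minus the mock, which had no siRNA, the median of this list was -0.12. RAD51D, of recombination repair, stood at -0.34, RAD51C at -0.17 and the BRCA1 partner BARD1 at -0.22. Of 29 tested PP2A subunits and regulators, 3 lay above, 9 below and 6 on opposite sides (median -0.06). The catalytic subunit gene PPP2CA stood at 328 and 319 CPM against 311 and 310.3 CPM, the scaffold gene PPP2R1A at 193 and 209.9 CPM against 229 and 219 CPM and the inhibitor gene SET at 525 and 558 CPM against 513 and 533 CPM. Within the list PPP2R3A, a regulatory subunit, stood at -0.27, the other catalytic gene PPP2CB at -0.24 and STRN4, a striatin subunit, at 0.37 (log2), the last at 0.21 with the mock among the controls and 0.23 with GC and length offsets. Of the 26 lists examined, 0 held a member called in this comparison.

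MYC, whose protein CIP2A protects, stood at 123 CPM with SCR#2 and 121 CPM with SCR#3 and at 121 CPM with siCIP2A#1 and 164 CPM with siCIP2A#3, so that siCIP2A#1 was close to the controls and siCIP2A#3 above them, with 147 CPM in the mock and 124 CPM with siCIP2A#2. The group difference of 0.21 (SE 0.15, edgeR adjusted p = 0.840) became -0.04 without siCIP2A#3. Between the siRNA libraries the log2 difference was -0.46 as #1 minus #3 (edgeR adjusted p = 9.18e-04, and 0.282 with the mock added). Of 35 tested genes of the MYC network and its targets, 10 lay above, 5 below and 15 on opposite sides, and the median was -0.04 with siCIP2A#1 and 0.16 with siCIP2A#3. SRM, the spermidine synthase gene, stood at 0.27 and BOP1, of ribosome assembly, at 0.42, and both came to 0.09 with the mock among the controls. E2F1 stood at 50.9 and 47.3 CPM against 53.6 and 58.4 CPM (0.17, SE 0.10), and the mock at 58.8 CPM was higher than all 4. For 49 genes of E2F and DNA replication the median was -0.10 with siCIP2A#1 and 0.07 with siCIP2A#3, with 7 above, 7 below and 19 on opposite sides. The replication genes included POLA2 at -0.27 and the G1 cyclin gene CCNE1 at 0.37, and UHRF1 stood at 0.25. For CCNE1 the mock at 16.9 CPM lay between siCIP2A#1 at 15.8 CPM and siCIP2A#3 at 17.8 CPM. For UHRF1 the mock at 46.5 CPM was above siCIP2A#1 at 39.6 CPM and siCIP2A#3 at 44.5 CPM. For 43 genes of G2/M and mitosis the medians were -0.12 and 0.06, with the transcription factor gene MYBL2 at 0.27, the mitotic kinase gene AURKA at -0.19 and HMMR at -0.16. For 75 ribosomal proteins they were -0.11 and 0.06, with RPL29, RPS15 and RPL36 at 0.20, 0.21 and 0.19, which came to 0.03, 0.05 and 0.08 with the mock among the controls, genes whose many pseudogenes make their counts uncertain. For each of these 4 lists the median lay below 0 with siCIP2A#1 and above 0 with siCIP2A#3. Both siRNAs share the non-targeting libraries, so these medians are set side by side and not correlated. For siCIP2A#2 minus the mock, which had no siRNA, the medians were -0.19 (MYC), -0.25 (E2F), -0.19 (G2/M) and -0.08 (ribosomal proteins).

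For the NF-kB, immediate early and interferon lists the medians had the same sign with both siRNAs, with 0 members called. Between the controls themselves (SCR#3 minus SCR#2) the medians of these lists were 0.07, -0.14 and 0.08. Of 23 tested NF-kB and inflammatory genes, 8 lay above both controls, 0 below and 7 on opposite sides, where 19%, 18.5% and 27.7% of all tested genes did, with a median of 0.14, and 0.26 and 0.08 with siCIP2A#1 and siCIP2A#3. RELB, an NF-kB subunit, stood at 35.9 and 37.5 CPM against 44.9 and 48.8 CPM, but the mock at 55.1 CPM was higher than all 4. The adhesion gene ICAM1 stood at 73.3 and 73.9 CPM against 99.1 and 78.1 CPM, and the chemokine gene CXCL3 had 1 read with each control, under the floor, and 0.606 and 0.827 CPM with the siRNAs, beside 0.50 CPM in the mock. Of 34 immediate early and ERK feedback genes, 11 lay above and 2 below, with a median of 0.13. FOS, a subunit of the AP-1 factor, stood at 5.26 and 4.48 CPM against 9.64 and 7.44 CPM and its relative FOSB at 2.16 and 1.22 CPM against 3.08 and 7.62 CPM, with siCIP2A#3 highest for FOSB and siCIP2A#1 for FOS. The early gene IER2 stood at 0.34, and 0.21 with the mock among the controls. Of 34 interferon response genes, 4 lay above and 11 below (median -0.09). STAT2, which relays interferon signals, stood at 72.0 CPM with SCR#2 and 70.2 CPM with SCR#3 and at 58.6 CPM with siCIP2A#1 and 51.4 CPM with siCIP2A#3, while siCIP2A#2 at 79.5 CPM was the highest of the 6. IFIT1 stood at 15.1 and 20.1 CPM against 10.5 and 12.9 CPM, with the mock at 10.6 CPM among the silenced values. The median of siCIP2A#2 minus the mock had the opposite sign in all 3 lists, at 0.23 for the interferon, -0.14 for the NF-kB and -0.11 for the immediate early list. The mock had no siRNA, so these medians set an siRNA against none, unlike those of the pair. With siCIP2A#2 CIP2A also stayed at 45.0% of the non-targeting mean.

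In several of the remaining lists the medians of the siRNAs had opposite signs. The medians of the silenced pair lay between -0.06, for 21 heat shock proteins, and 0.09, for 35 TGF-beta and YAP targets, apart from 41 collagens, matrix and mesenchymal genes at 0.14. With siCIP2A#1 and siCIP2A#3 the medians were 0.33 and -0.03 for the matrix list, 0.07 and -0.28 for cholesterol and fatty acid synthesis and 0.17 and -0.13 for keratins and lineage factors. Between the controls themselves (SCR#3 minus SCR#2) the medians of these lists were -0.08, 0.14 and -0.03. In the matrix list 10 genes lay above, 1 below and 15 on opposite sides. TNC, tenascin C, stood at 46.1 and 38.7 CPM against 60.5 and 58.7 CPM, with 33.1 CPM in the mock and 45.8 CPM with siCIP2A#2, and LTBP1, which binds latent TGF-beta, stood at 65.3 and 69.0 CPM against 95.0 and 84.4 CPM, with 55.9 CPM in the mock and 75.6 CPM with siCIP2A#2. In both cases siCIP2A#1 and siCIP2A#3 were the highest of the 6 libraries. The laminin gene LAMA4 stood at 0.48. SMAD7, which restrains signalling by TGF-beta receptors, stood at 11.6 CPM with SCR#2 and 14.2 CPM with SCR#3 and at 25.8 CPM with siCIP2A#1 and 19.4 CPM with siCIP2A#3, with 17.6 CPM in the mock and 21.5 CPM with siCIP2A#2, a log2 difference of 0.80 (SE 0.18). LATS2 and TEAD4, of the Hippo pathway, stood at 0.36 and 0.24. Targets of ATF4, the factor of the amino acid response, had a median of 0.04 over 35 genes. It was 0.56 for siCIP2A#2 minus the mock, which sets an siRNA against none. VEGFA stood at 39.0 and 42.0 CPM against 51.6 and 65.9 CPM, SLC3A2 at 0.30 and GPT2 at 0.25. Among p53 targets, whose median was -0.0007 over 23 genes, CCNG1 stood at -0.29, AEN at 0.35 and the death receptor gene TNFRSF10B at 0.24. In the BCL2 and death receptor list (27 genes, median 0.07) the effector gene BAK1 stood at 22.6 and 24.6 CPM against 36.6 and 30.1 CPM and BAD at 0.33. For BAD the mock at 32.9 CPM was above siCIP2A#1 at 31.3 CPM and siCIP2A#3 at 30.7 CPM. For BAK1 the mock at 26.4 CPM was below both.

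Smaller differences made up the rest. The ER chaperone gene HSP90B1 stood at -0.23, HYOU1 at 0.22 and the ERAD ligase gene SYVN1 at 0.22 (26 genes, median -0.0003). The cytosolic chaperone gene HSP90AA1 stood at -0.21, DNAJB4 at -0.29 and the heat shock factor gene HSF1 at 0.28, which was 0.08 with the mock among the controls. Among 40 oxidative phosphorylation genes (median -0.03) NDUFA1 stood at -0.26, while ATP5D at 0.32 and NDUFS8 at 0.27 came to 0.09 and 0.05 with the mock among the controls. Among 40 lysosome and autophagy genes (median -0.02) the protease gene CTSB stood at -0.24, MAP1LC3B at -0.20 and GRN at 0.19. Among 32 genes of the PI3K, AKT and mTOR pathway (median 0.04) the phosphatase gene PHLPP2 stood at 0.35, RPS6KB2 at 0.25 and SGK1 at 0.30. For RPS6KB2 the mock at 48.9 CPM was above siCIP2A#1 at 47.1 CPM and siCIP2A#3 at 47.5 CPM. For PHLPP2 and SGK1 the mock, at 38.2 and 39.4 CPM, was below both. Among 32 glycolysis and hypoxia genes (median -0.03, and -0.13 with the mock among the controls) BNIP3L stood at -0.23, PFKM at -0.17 and ADM at 0.41. Of 22 epithelial junction genes (median -0.03) F11R stood at 0.29, ESRP1 at 0.51 and DSP at -0.21, and of 13 keratins and lineage factors (median 0.05) ERBB2 stood at 0.20, SOX9 at 0.25 and KRT8 at 0.24, which turned to -0.21 without siCIP2A#1. Among 23 NRF2 and oxidative stress genes (median 0.0043) FTL stood at 0.16 and GSR at -0.19. Of 16 genes of the RNA interference machinery (median -0.01) RAN stood at -0.31, PRKRA at -0.42 and TARBP2 at 0.18. Of 18 histone genes (median 0.00093) HIST1H3H stood at 1.29 and 1.09 CPM against 3.30 and 2.13 CPM, beside 2.86 CPM in the mock, HIST1H2BC at 0.50 and HIST1H1C at -0.19.

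**Figure D3:**
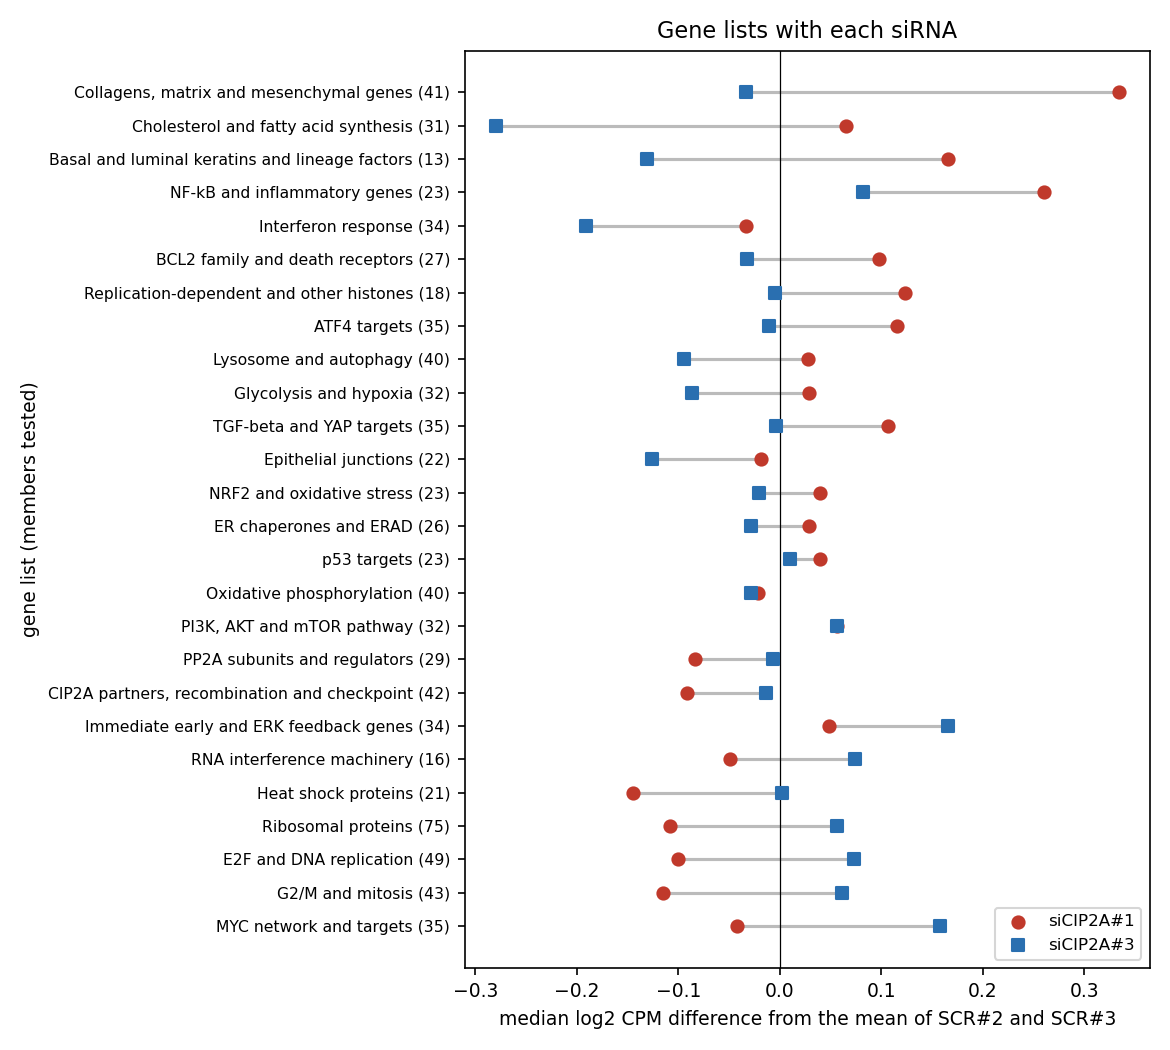
Median log2 CPM difference from the mean of SCR#2 and SCR#3 over the tested members of each of 26 gene lists, for siCIP2A#1 (circles) and siCIP2A#3 (squares), joined by a line and ordered by the gap between them. Both differences share the non-targeting libraries. Between these (SCR#3 minus SCR#2) the median of the sterol and fatty acid list was 0.14. The gap is widest for the matrix list (0.33 and -0.03) and the sterol and fatty acid list (0.07 and -0.28) and, in the other direction, for the MYC list (-0.04 and 0.16).

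The next comparison asked where siCIP2A#1 and siCIP2A#3 differ from each other. In a fit with 3 levels the spread comes from SCR#2 and SCR#3 alone, with 1 residual degree of freedom, and each siRNA's library is assumed to vary like that pair. In that fit edgeR called 1072 genes higher with siCIP2A#1 (7.84%) and 1005 higher with siCIP2A#3 (7.35%). Against the non-targeting pair, 822 genes were called higher (6.01%) and 673 lower (4.92%) with siCIP2A#1, and 429 higher (3.14%) and 455 lower (3.33%) with siCIP2A#3. These counts depend on which libraries give the spread. With the mock added to the libraries that give the spread, 71 genes differed between the siRNAs (51 higher with siCIP2A#1 and 20 higher with siCIP2A#3), 17 differed with siCIP2A#1 (8 higher and 9 lower) and CIP2A alone with siCIP2A#3. DESeq2 called 302, 158 and 57 genes in the same order. A call in this and the following paragraphs is thus a difference of 1 library measured against 1 pair. For some of the genes only, it is said whether the call ends with the mock added.

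The genes with one siRNA above and the other below both controls, ordered by the p between the siRNAs, were led by SPARC, a secreted matrix glycoprotein, on chromosome 5 from 151661096 to 151686915. SPARC stood at 39.4 CPM with SCR#2 and 39.7 CPM with SCR#3 and at 91.1 CPM with siCIP2A#1 and 24.0 CPM with siCIP2A#3, with 32.9 CPM in the mock and 47.5 CPM with siCIP2A#2. It rose by 1.17 with siCIP2A#1 (edgeR adjusted p = 9.24e-07), fell by 0.72 with siCIP2A#3 (edgeR adjusted p = 6.81e-04, and 0.364 with the mock added) and differed by 1.90 between them (edgeR adjusted p = 5.62e-08, and 0.0196 with the mock added). FASN, the fatty acid synthase, on chromosome 17 from 82078338 to 82098236, stood at 695 CPM with SCR#2 and 704 CPM with SCR#3 and at 976 CPM with siCIP2A#1 and 481 CPM with siCIP2A#3, with 829 CPM in the mock and 735 CPM with siCIP2A#2. INSIG1, the ER protein that holds back the sterol-sensing factor SREBP, on chromosome 7 from 155297878 to 155310235, stood at 199.9 CPM with SCR#2 and 226 CPM with SCR#3 and at 339 CPM with siCIP2A#1 and 130.1 CPM with siCIP2A#3, with 178 CPM in the mock and 163 CPM with siCIP2A#2. For FASN and INSIG1 as for SPARC, siCIP2A#1 was the highest and siCIP2A#3 the lowest of the 6 libraries. SEMA3E, a semaphorin, stood at 28.4 and 32.6 CPM against 52.8 and 14.9 CPM and C10orf10 at 43.5 and 45.0 CPM against 58.7 and 22.1 CPM. The long noncoding RNA MALAT1, on chromosome 11 from 65497738 to 65506516, stood at 461 and 476 CPM against 520.3 and 268 CPM, and its difference between the siRNAs of 0.94 did not pass with the mock, at 329 CPM, added (edgeR adjusted p = 0.114).

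Other genes had the opposite order. FOSL1, an AP-1 subunit that ERK signalling induces, on chromosome 11 from 65892049 to 65900545, stood at 428 CPM with SCR#2 and 397 CPM with SCR#3 and at 317 CPM with siCIP2A#1 and 653 CPM with siCIP2A#3, with 506 CPM in the mock and 441 CPM with siCIP2A#2. It was highest with siCIP2A#3 and lowest with siCIP2A#1 (-1.07 as #1 minus #3, edgeR adjusted p = 6.20e-07, and 0.0396 with the mock added). NRP1, a receptor for semaphorins and VEGF, on chromosome 10 from 33177493 to 33334667, stood at 46.5 and 45.8 CPM against 40.5 and 87.7 CPM, and its difference of -1.14 did not pass with the mock, at 35.2 CPM, added (edgeR adjusted p = 0.0509). TGFBR3, the TGF-beta co-receptor betaglycan, stood at 81.1 and 76.2 CPM against 46.6 and 103 CPM. MEX3C, an RNA-binding ubiquitin ligase gene, stood at 81.7 and 89.4 CPM against 43.3 and 103 CPM, TMX2, of the thioredoxin-related proteins, at 61.1 and 59.6 CPM against 32.9 and 71.5 CPM and the nuclear import gene TNPO2 at 173 and 181 CPM against 112 and 208 CPM. For the last 3 the larger part of the gap was low values with siCIP2A#1.

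**Figure D4:**
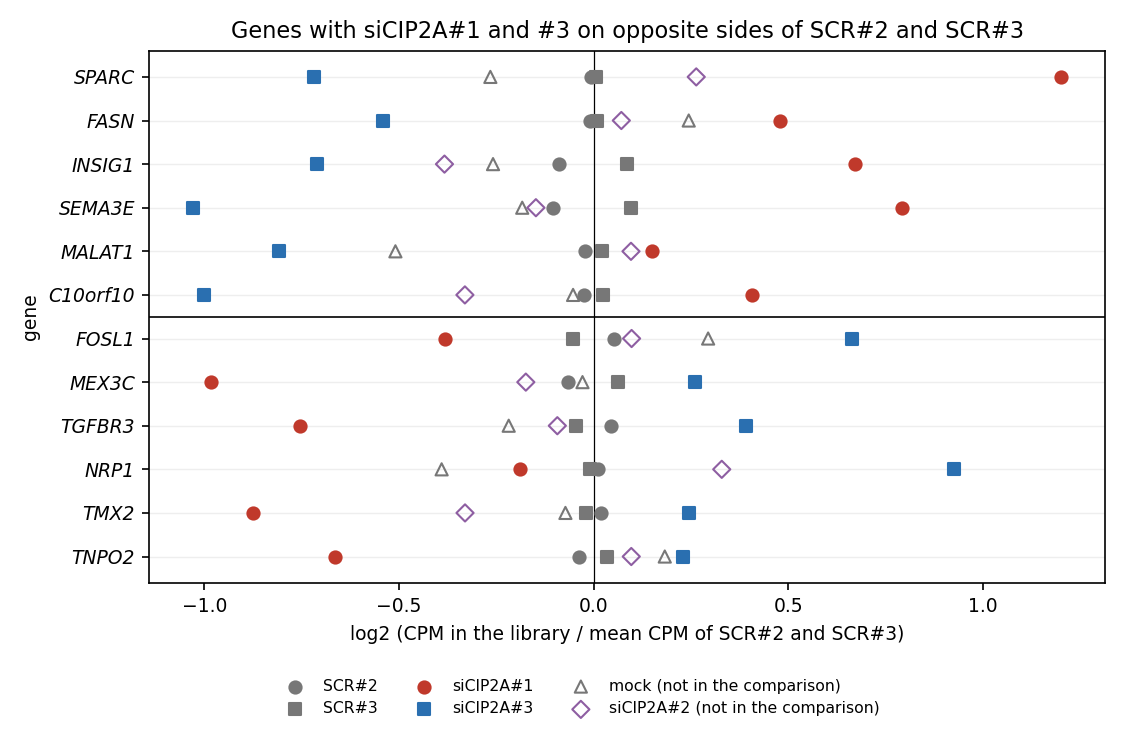
The 12 named genes with one siRNA above and the other below both non-targeting libraries, as the log2 ratio of the library-scaled count (CPM) in each library to the mean of SCR#2 and SCR#3. Filled symbols are the 4 libraries compared and open symbols the mock and siCIP2A#2. The upper 6 genes are highest with siCIP2A#1 and the lower 6 highest with siCIP2A#3, as in SPARC (log2 difference 1.90 between the siRNAs) and FOSL1 (-1.07).

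FASN and INSIG1 belong to the list of cholesterol and fatty acid synthesis, whose genes SREBP factors are known to switch on together. Of its 31 tested members, 0 lay above both controls with both siRNAs, 5 lay below and 18 lay on opposite sides, against 19%, 18.5% and 27.7% of all tested genes. Against the non-targeting pair, 9 rose and 1 fell with siCIP2A#1, while 0 rose and 16 fell with siCIP2A#3, and 20 were higher with siCIP2A#1 than with siCIP2A#3 and 0 lower. Of all tested genes 6.01% were called higher and 4.92% lower with siCIP2A#1, 3.14% and 3.33% with siCIP2A#3, and 7.84% and 7.35% between them. With the mock added, 4 of 31 were higher with siCIP2A#1 than with siCIP2A#3, beside 51 of all 13752 genes tested in that fit. Against the controls 0 of the list then passed with either siRNA, beside 17 of all genes with siCIP2A#1 and 1 with siCIP2A#3. DESeq2 called 14 of the list higher with siCIP2A#1 than with siCIP2A#3, beside 169 of all 13673. The one that fell with siCIP2A#1 was CYP51A1, at 118 and 133 CPM against 98.7 and 117 CPM. SCD, the stearoyl-CoA desaturase, stood at 6388 and 7596 CPM against 6701 and 4483 CPM, and FADS1, another desaturase gene, at 242 and 249 CPM against 234 and 202 CPM. Between the siRNAs SCD differed by 0.56 (edgeR adjusted p = 0.0122, and 0.170 with the mock added).

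Of the genes in this list, 5 were called higher with siCIP2A#1 and lower with siCIP2A#3, and RefSeq (GRCh38.p14) gave a promoter window of 300 bases around the start for 3 of them. HMGCS1, the synthase of the mevalonate pathway, stood at 252 CPM with SCR#2 and 271 CPM with SCR#3 and at 383 CPM with siCIP2A#1 and 195 CPM with siCIP2A#3. IDI1, an isomerase gene further down that pathway, stood at 194 CPM with SCR#2 and 215 CPM with SCR#3 and at 269.7 CPM with siCIP2A#1 and 129.5 CPM with siCIP2A#3. Their windows are shown because these 3 genes were called in opposite directions with the siRNAs, and capitals mark CCAAT on either strand (ATTGG on the strand printed), the box bound by NF-Y, a known partner of SREBP. They lie at chr5:43313363-43313662 (minus strand), chr10:1056655-1056954 (minus strand) and chr7:155297628-155297927 (plus strand).
HMGCS1: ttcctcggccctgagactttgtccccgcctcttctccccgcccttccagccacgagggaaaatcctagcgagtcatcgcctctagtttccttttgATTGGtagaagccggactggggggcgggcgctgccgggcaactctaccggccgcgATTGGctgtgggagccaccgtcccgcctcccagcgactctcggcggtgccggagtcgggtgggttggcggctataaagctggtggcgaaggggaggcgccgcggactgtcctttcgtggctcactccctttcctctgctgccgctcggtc
IDI1: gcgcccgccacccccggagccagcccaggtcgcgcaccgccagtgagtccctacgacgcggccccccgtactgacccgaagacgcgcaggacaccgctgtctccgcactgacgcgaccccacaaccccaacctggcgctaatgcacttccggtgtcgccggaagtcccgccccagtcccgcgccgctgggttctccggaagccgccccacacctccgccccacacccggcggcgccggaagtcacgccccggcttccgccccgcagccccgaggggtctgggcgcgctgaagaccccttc
INSIG1: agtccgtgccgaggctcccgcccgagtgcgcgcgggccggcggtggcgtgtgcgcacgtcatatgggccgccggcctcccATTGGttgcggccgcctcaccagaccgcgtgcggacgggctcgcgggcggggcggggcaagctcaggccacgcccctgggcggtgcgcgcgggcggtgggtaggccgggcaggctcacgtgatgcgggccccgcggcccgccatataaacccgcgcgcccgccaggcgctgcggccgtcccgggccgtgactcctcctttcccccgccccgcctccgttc
The HMGCS1 window holds 2 matches, the INSIG1 window 1 and the IDI1 window 0. CCAAT occurred in 17 of the 25 tested list members with a window, in 36.6% of 10187 tested genes with a window and in 35.7% of all 27305 windows. The sterol element letters TCACNCCAC, where N is any base, occurred on either strand in 0 of the 3 windows, in 1 of the 25 list members and in 1.15% of all windows. No match overlapped another in the 3 windows. HMGCS1 had 2 windows in the table and IDI1 3, of which the first was used.

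Single siRNAs gave calls as well. With siCIP2A#1, CALB2, the calcium-binding protein calretinin, on chromosome 16 from 71358723 to 71390433, rose from 10.1 and 8.55 CPM to 33.5 CPM, while siCIP2A#3 at 9.39 CPM lay between the controls (log2 1.81, edgeR adjusted p = 1.19e-06). The apolipoprotein gene APOE rose from 20.2 and 25.6 CPM to 60.3 CPM and the glucose transporter gene SLC2A3 from 132 and 116 CPM to 221 CPM. The kinase gene MKNK2 rose from 125 and 138 CPM to 222 CPM, a call that ended with the mock added. GRSF1, a mitochondrial RNA-binding protein gene, fell from 144 and 142 CPM to 75.2 CPM, where siCIP2A#3 stood at 130.3 CPM. The metalloprotease gene ADAM9 fell from 330.0 and 299 CPM to 165 CPM, the stress kinase gene MAPK9 from 103 and 97.0 CPM to 51.8 CPM and FKBP9 from 94.7 and 90.3 CPM to 50.4 CPM, and these 3 calls ended with the mock added. CALB2, APOE, SLC2A3, GRSF1, SPARC and MEX3C kept theirs. In the matrix list 18 genes rose and 3 fell with siCIP2A#1, against 2 and 2 of 41 with siCIP2A#3, where 6.01% and 4.92% of all tested genes were called with siCIP2A#1 and 3.14% and 3.33% with siCIP2A#3. With the mock added 3 matrix genes rose with siCIP2A#1, beside 8 of all 13752 genes tested in that fit. The fibroblast marker COL1A1 is a member, and the summed fibroblast markers were also highest with siCIP2A#1, at 18.5 CPM, while LUM and COL3A1 had at most 3 reads. Their part in the matrix values was not tested.

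With siCIP2A#3, the calls below all ended with the mock added, which left CIP2A alone. The early growth response gene EGR1 rose from 15.4 and 14.3 CPM to 31.1 CPM (log2 1.06, edgeR adjusted p = 1.08e-04) and the transporter gene SLC16A9 from 18.1 and 19.9 CPM to 36.4 CPM, while siCIP2A#1 stood at 17.3 and 18.9 CPM. HMOX1, FOSL1 and NRP1 also rose, by 1.04, 0.66 and 0.92 on the log2 scale. POLR2H, a shared subunit of the nuclear RNA polymerases, on chromosome 3 from 184361710 to 184368591, fell from 75.8 and 73.0 CPM to 37.1 CPM, against 75.0 CPM with siCIP2A#1, 81.1 CPM in the mock and 74.9 CPM with siCIP2A#2. ERLIN2, of the ER membrane, fell from 53.3 and 58.4 CPM to 25.6 CPM and FAM122B from 109 and 109 CPM to 63.3 CPM. For POLR2H, ERLIN2 and FAM122B the siCIP2A#3 library stood below all the other 5. The paraspeckle RNA NEAT1 fell from 289 and 307 CPM to 182 CPM and MALAT1, its neighbour on chromosome 11, fell by 0.81 (log2). Of the MYC list, 11 genes rose and 0 fell with siCIP2A#3, and 4 rose and 5 fell with siCIP2A#1, of 35 tested, beside 3.14% and 3.33% of all tested genes with siCIP2A#3 and 6.01% and 4.92% with siCIP2A#1. With the mock added 0 members were called with either siRNA, beside 17 of all 13752 genes with siCIP2A#1 and CIP2A alone with siCIP2A#3.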

How the data were processed

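RNA of the HCC38 line was measured in 6 libraries, 4 of which were compared. Per the labels' protocols, libraries were made from poly(A) RNA with a stranded TruSeq mRNA kit. Bcl2fastq 2.17, STAR 2.5.4b, Subread 1.5.1 and the build hg38 are named, per the submitters' processing notes. For the annotation, the strand setting and reads with several matches, the treatment is not given in the sources used here. The values deposited by the authors are unnormalized counts of reads for each of 26485 genes. Of the symbols, 51 had been altered by a spreadsheet, of which 50 were restored through the Entrez identifier of the row and 1 was not, and 1016 genes had no identifier.

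Genes passed filterByExpr (minimum count 10), were scaled by TMM and tested with edgeR 4.0.16 (quasi-likelihood, robust) in R 4.3.3, at a Benjamini-Hochberg adjusted p under 0.05. The group was the only term, with 2 residual degrees of freedom. The siRNAs were compared singly in a fit with 3 levels and 1 residual degree of freedom. Log2 CPM used a prior count of 2. DESeq2 1.42.0, limma 3.58.1, other scaling and filters, left-out libraries, the mock and siCIP2A#2 were alternatives, and GC and length offsets were added after seeing the data. Coordinates and promoter windows are from RefSeq (GRCh38.p14), and GC and length from GENCODE 29, matched for 97.7% of tested genes.

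The libraries, gene lists and rules were chosen with earlier results of these data known. Named genes were CIP2A, 10 genes per direction with both siRNAs on the same side (called ones first, then the smallest p), 6 per direction on opposite sides, 5 called per siRNA and direction, 3 per list with the smallest p, and TOPBP1, MDC1, MYC, E2F1, PPP2CA, PPP2R1A and SET. Genes on the same side or on opposite sides had a mean log2 CPM of at least 1. IDI1 and HMGCS1 were named after their values were seen. Some items that the rule names are not reported here.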

Additional observations from a re-analysis of the deposited data

Results flagged for a closer look

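Of the 129 named genes, 43 differed between the silenced libraries themselves, by edgeR's test of siCIP2A#1 against siCIP2A#3 (adjusted p from 5.62e-08 to 0.0493). Of these, 21 were higher with siCIP2A#1 and 22 higher with siCIP2A#3, where 7.84% and 7.35% of all tested genes were. Many of the 43 were named because they differed, so their number follows in part from the naming rule. The values below are log2 differences, siCIP2A#1 minus siCIP2A#3, with 1 library a side and the spread taken from SCR#2 and SCR#3. With the mock added to the controls 17 of the 43 passed, and MALAT1, NRP1 and MYC did not. DESeq2 called 27 of them, of 42 with an adjusted p.

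In 17 genes the siRNAs stood on opposite sides of both non-targeting libraries. This order sets no least distance: SLC2A3 was at 116 CPM with siCIP2A#3 and with SCR#3, and MYC at 121 CPM with siCIP2A#1 and with SCR#3. For these genes 1 siRNA was thus level with a control. Higher with siCIP2A#1 were SPARC (1.90), SEMA3E (1.80), C10orf10 (1.39), INSIG1 (1.36), ERLIN2 (1.33), FASN (1.00), MALAT1 (0.94), SLC2A3 (0.90) and KRT8 (0.80). Higher with siCIP2A#3 were TOPBP1 (-0.25), MYC (-0.46), TNPO2 (-0.92), FOSL1 (-1.07), NRP1 (-1.14), TMX2 (-1.14), TGFBR3 (-1.17) and MEX3C (-1.27).

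In the other genes at least one siRNA library was not apart from both non-targeting ones, or both stood on the same side of them. Higher with siCIP2A#1 were CALB2 (1.81), APOE (1.32), POLR2H (0.99), NEAT1 (0.74), MKNK2 (0.63), FAM122B (0.62), SCD (0.56), F11R (0.45), RAN (0.36), ICAM1 (0.32), LATS2 (0.31) and AURKA (0.23). Higher with siCIP2A#3 were MYBL2 (-0.29), IRAK4 (-0.33), VEGFA (-0.38), SOX9 (-0.38), BARD1 (-0.43), HMOX1 (-0.50), PRKRA (-0.59), FKBP9 (-0.69), ADAM9 (-0.81), GRSF1 (-0.82), EGR1 (-0.87), SLC16A9 (-0.97), MAPK9 (-1.01) and FOSB (-1.33). Among the genes named for standing on the same side with both siRNAs, HMOX1 and IRAK4 are listed here too, and neither passed with the mock added.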

How the results depend on the processing

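Only CIP2A was called in the main comparison with RLE or upper quartile factors, no filter, a CPM filter, DESeq2, limma-voom, either non-targeting library left out, the mock among the controls, all 6 libraries in the fit, and GC and length offsets. With siCIP2A#2 added to the silenced group 0 genes were called. With 1 library left out the count ranged from 1 to 2077, with 1082 without siCIP2A#1 and 2077 without siCIP2A#3, where the lone silenced library is assumed to vary like the controls. Between the siRNAs DESeq2 called 302 genes and edgeR 71 with the mock added. With siCIP2A#1 against the non-targeting pair these counts were 158 and 17. With siCIP2A#3 they were 57 and 1, with 1524 without the filter and 1435 with GC and length offsets. With GC and length offsets the number of genes called with siCIP2A#1 changed little, but many genes called in the main fit were no longer among them. The cause of these changes was not tested. With 1 library left out the log2 difference ranged from -0.21 (without siCIP2A#1) to 0.58 (without siCIP2A#3) for KRT8, from -0.18 (without siCIP2A#3) to 0.064 (without siCIP2A#1) for TOPBP1 and from -0.043 (without siCIP2A#3) to 0.42 (without siCIP2A#1) for MYC. Of the values of named genes under the alternatives, 1544 kept direction and side of the threshold, 118 passed it newly, 16 no longer passed and 3 turned. Most of those values belong to genes uncalled in the main comparison, which could gain a call but not lose one. The alternatives also include the fits with a lone silenced library, so the tally does not measure how well calls held. No paired analysis was possible because the 4 libraries share only the number 3 in the labels. With 1 library per siRNA and 2 residual degrees of freedom, small shared differences were not detectable here, and genes without a call are not shown to be unchanged.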
